A study of Arabidopsis thaliana with 18 samples.

Results

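The second week of cold in an Italian (IT) ecotype of Arabidopsis thaliana was examined by setting the transcript levels after 2 weeks at 4 °C against those after 1 week at 4 °C. A gene was kept when its FPKM (fragments mapped per kilobase of transcript, scaled to library size) was at least 1 at either time, which held for 18469 of the 33557 genes in the table. Of the kept genes, 91 were listed at exactly 0 at 1 of the times and were given no ratio, since some were abundant at the other time, which left 18378 genes. The highest value beside such a 0 was 3385 FPKM, for the snoRNA gene AT4G03295. At the FPKM limit, RLP21 was the last gene inside, at 0.406 FPKM after 1 week and 1.00092 after 2 weeks, and SDR5 the first outside, at 0.485 and 0.999.

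IT and Swedish (SW) plants, natural accessions of the species with no transgene or mutation named in the labels, spent 18 days on soil at 22 °C, with 12 h of light a day, under 100 to 120 µmol m-2 s-1 of light. Harvest followed directly, or after 1 or 2 weeks at 4 °C in the same photoperiod under about 35 µmol m-2 s-1. Whole aerial parts were taken 4 h after lights on. The series concerns natural variation in the CBF cold pathway and local adaptation, and has 18 libraries, 3 for each ecotype and condition. The table holds 1 combined value for each group, so there was no spread between libraries, and no test, error or p-value could be given for any value below. The depth behind the values is unknown. A ratio is log2((2 weeks + 1)/(1 week + 1)) of the FPKM, which understates the change of genes near 1 FPKM, and genes with a ratio of 1 or more are called higher and those with -1 or less lower, a limit of size alone. The plants of the second week were also a week older, and age and time in the cold cannot be told apart.

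Plants that stay in the cold pass from a first shock, in which CBF transcription factors switch on protective cold-regulated (COR) genes, to a longer acclimation in which growth, ribosome supply, metabolism and defence are reset. Salicylic acid is the hormone that drives defence against pathogens living on living tissue, and its synthesis genes and their WRKY regulators act in loops that amplify each other. Glucosinolates are sulfur-rich defence compounds of the cabbage family, and the aliphatic ones are made from methionine. Ribosomes are assembled in the nucleolus, where small nucleolar RNAs (snoRNAs) and their proteins process and modify ribosomal RNA.

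The 2 times were close for most genes. The median ratio was 0.01, with quartiles at -0.23 and 0.24 and an SD across genes of 0.44. After 2 weeks 352 genes (1.92%) were higher and 287 (1.56%) were lower, 639 in all (3.48%), while 17739 lay within 2-fold. Thus 55.1% of the genes past the limit were higher. That split depended on the scaling: it was 33.2% when the columns were scaled to the 12 reference genes, whose median ratio was 0.14, and 75.2% when they were scaled to the same FPKM sum. The median of all genes was then -0.12 and 0.14. Of all ratios 9375 were above 0 and 9003 below 0. Counts of list and family members below are to be read against these numbers and the shares of 1.92% and 1.56%. Among the larger ratios, 32 genes were 4-fold or more higher and 12 were 4-fold or more lower. NAC036 was the last gene inside the upper limit, at 1.0012, and AT1G47980 the first outside, at 0.9987. At the lower limit these were emb1796, at -1.0004, and PYRD, at -0.9980.

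**Figure D1:**
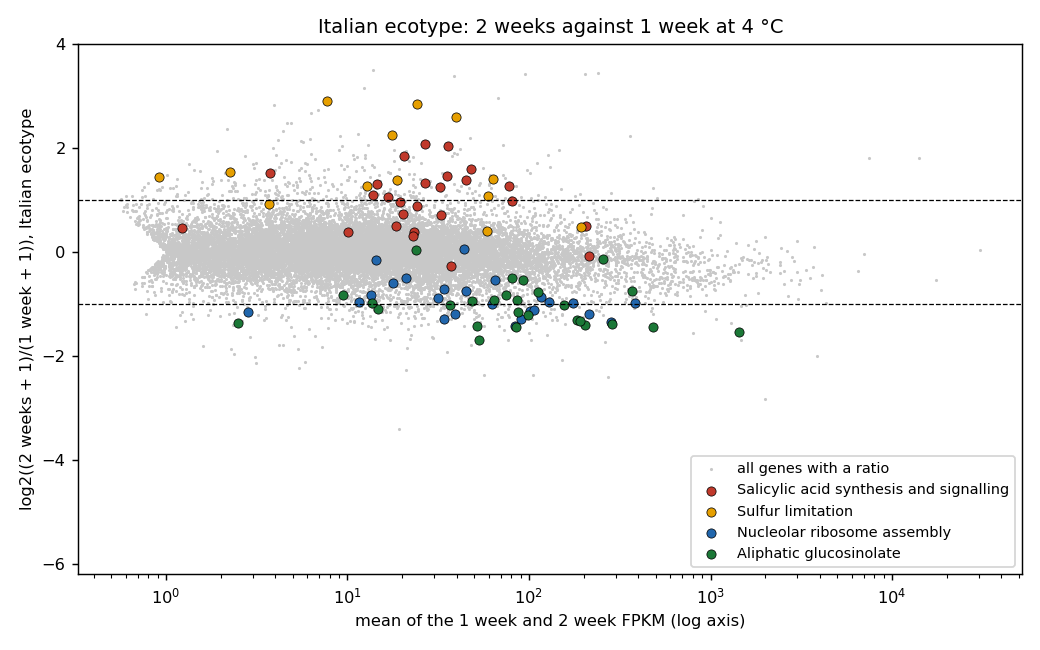
Ratio of 2 weeks to 1 week of cold (log2, 1 FPKM added) against the mean FPKM of both times (log axis) in the Italian ecotype, with 1 grey point for each of the 18378 genes and dashed lines at 2-fold. Coloured points are 4 gene lists: salicylic acid (13 of 26 genes higher) and sulfur limitation genes (10 of 13) lie mostly above 0, and nucleolar (9 of 24 lower) and aliphatic glucosinolate genes (15 of 27 lower) mostly below.

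The upstream sequences of 7 genes are shown first, since their values mark the main shifts: 2 nucleolar genes that were lower together, the cold-regulated neighbours KIN1 and KIN2 that went apart, 2 plant defensin genes that were higher, and a regulator of salicylic acid synthesis. Each is the 250 bases before the annotated gene start in RefSeq's TAIR10.1 assembly, read 5′ to 3′ on the gene's own strand. The reads came from IT plants, and the sequence is that of the Columbia reference.

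For the nucleolar protein gene NOP56 (chr1:20986953-20987202, minus strand) and AT5G27120, annotated as a NOP56-like ribonucleoprotein (chr5:9540611-9540860, plus strand), capitals mark the telo box AAACCCTA, a motif known from promoters of ribosomal protein genes. It begins 17 bases before the start of NOP56 and 44 bases before that of AT5G27120.
NOP56: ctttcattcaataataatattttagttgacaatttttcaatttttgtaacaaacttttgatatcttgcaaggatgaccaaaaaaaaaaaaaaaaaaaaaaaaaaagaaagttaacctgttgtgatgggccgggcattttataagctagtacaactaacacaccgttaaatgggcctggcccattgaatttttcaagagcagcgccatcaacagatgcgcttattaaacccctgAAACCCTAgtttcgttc
AT5G27120: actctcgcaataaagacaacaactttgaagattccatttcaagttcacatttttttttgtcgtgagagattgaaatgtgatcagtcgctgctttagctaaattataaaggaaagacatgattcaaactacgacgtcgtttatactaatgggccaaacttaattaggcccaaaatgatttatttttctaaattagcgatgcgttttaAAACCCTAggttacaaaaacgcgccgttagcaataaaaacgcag

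KIN1 (chr5:5209467-5209716, plus strand) and KIN2 (chr5:5211469-5211718, plus strand) encode small hydrophilic cold-induced proteins and lie 892 bases apart on chromosome 5. Capitals mark the runs of at least 20 bases that both windows share, 3 runs with 82 bases in all. Reads of such close copies can be assigned to either gene.
KIN1: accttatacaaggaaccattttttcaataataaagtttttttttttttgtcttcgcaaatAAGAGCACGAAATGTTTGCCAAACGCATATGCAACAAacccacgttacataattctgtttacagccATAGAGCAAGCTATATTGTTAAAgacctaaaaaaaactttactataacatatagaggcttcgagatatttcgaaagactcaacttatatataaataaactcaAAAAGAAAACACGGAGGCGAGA
KIN2: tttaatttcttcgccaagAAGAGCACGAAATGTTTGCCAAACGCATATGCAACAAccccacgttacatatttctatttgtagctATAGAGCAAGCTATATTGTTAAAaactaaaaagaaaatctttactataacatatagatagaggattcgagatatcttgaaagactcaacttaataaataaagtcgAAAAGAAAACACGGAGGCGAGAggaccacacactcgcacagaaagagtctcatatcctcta

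The plant defensin genes PDF1.2a (chr5:17907639-17907888, minus strand) and PDF1.2b (chr2:11088873-11089122, plus strand) encode small antifungal proteins. Capitals mark GCCGCC, the GCC box bound by ethylene response factors, a motif searched for after the values of these genes had been seen.
PDF1.2a: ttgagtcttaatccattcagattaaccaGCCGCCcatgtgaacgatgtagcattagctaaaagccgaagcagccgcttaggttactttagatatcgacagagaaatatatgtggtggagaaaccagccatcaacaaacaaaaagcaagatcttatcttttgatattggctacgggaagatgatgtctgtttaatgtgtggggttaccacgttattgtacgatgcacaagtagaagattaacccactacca
PDF1.2b: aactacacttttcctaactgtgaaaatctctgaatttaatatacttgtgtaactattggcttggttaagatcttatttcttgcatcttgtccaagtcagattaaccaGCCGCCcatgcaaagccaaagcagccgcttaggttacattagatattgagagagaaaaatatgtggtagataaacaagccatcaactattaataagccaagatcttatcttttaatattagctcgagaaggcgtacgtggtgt

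SARD1 (chr1:27749249-27749498, minus strand) encodes a transcription factor that activates the salicylic acid synthesis gene ICS1. Capitals mark TTGAC or its reverse complement GTCAA, the core of the W box bound by WRKY factors. The window holds 4 matches, and 2 of them lie end to end in a stretch that also holds TGACG, the as-1 core.
SARD1: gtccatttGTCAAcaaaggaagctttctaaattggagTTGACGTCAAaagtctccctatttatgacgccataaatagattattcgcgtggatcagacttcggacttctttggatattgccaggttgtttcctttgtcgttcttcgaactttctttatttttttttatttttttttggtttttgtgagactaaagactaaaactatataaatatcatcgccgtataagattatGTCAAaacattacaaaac

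These motifs were counted on both strands in the same 250-base window of the 17777 protein-coding genes with a ratio and a full window. The W box core TTGAC stood in 44.8% of those windows, in 191 of 335 windows of the higher genes (57.0%) and in 127 of 261 of the lower genes (48.7%). It stood in 14 of 26 windows of the salicylic acid list (53.85%) and in 7 of 17 of the pathogenesis-related list (41.18%). TTGAC and TGACG (as-1 core, 19.5% of all windows and 23.9% of the higher) can overlap in 1 stretch of letters. The telo box stood in 3.61% of all windows, in 6 windows of the higher genes (1.79%) and in 21 of the lower genes (8.05%), and among the nucleolar genes in 5 of 24 windows (20.8%). The CRT/DRE core CCGAC, which CBF proteins bind, stood in 13.25% of all windows, in 10.45% of the higher, in 16.1% of the lower, and in 10 of 26 windows of the cold-regulated list (38.5%). The evening element AAATATCT stood in 5.15% of all windows, in 4.48% of the higher and in 4.60% of the lower. The G box CACGTG stood in 7.42% of all, in 4.78% of the higher and in 5.75% of the lower. The GCC box stood in 1.98% of all windows, in 14 of the higher (4.18%) and in 1 of the lower (0.383%). A match is a stretch of letters and shows no binding.

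Many genes of salicylic acid synthesis and signalling were higher after 2 weeks. Of the 26 listed genes 13 were higher and 0 lower, against 1.92% and 1.56% of all genes, and 24 of 26 ratios were above 0. The median ratio was 1.01, against 0.01 over all genes. In SW plants 0 of the same genes were higher and 6 were lower in the second week, with a median of -0.24. In whole aerial parts, a change in the number of cells of a type and a change in RNA per cell cannot be told apart.

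Most steps of the pathway were among them. ICS1, which makes isochorismate in the chloroplast, stood at 16.6 FPKM after 1 week and 31.5 after 2 weeks, a ratio of 0.89 that is just within 2-fold. EDS5, which exports isochorismate from the chloroplast, went from 8.34 to 32.4 FPKM (ratio 1.84). PBS3, which conjugates isochorismate to glutamate, went from 13.4 to 58.5 FPKM (2.04). Synthesis and export genes were thus all at a higher FPKM after 2 weeks, and their warm levels were 53.4, 16.1 and 34.5 FPKM. The transcription factor genes that activate ICS1 were higher as well: SARD1 went from 23.2 to 72.1 FPKM (1.59) and CBP60G from 14.8 to 38.8 (1.33). EDS1 and PAD4, which encode lipase-like partners in immune signalling, went from 18.7 to 46.1 FPKM (1.26) and from 18.4 to 52.5 (1.46).

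Receptors and response regulators differed in size. NPR3, a salicylic acid receptor, went from 10.6 to 22.9 FPKM (1.05), while the receptors NPR1 (15.1 to 21.8 FPKM, 0.50) and NPR4 (8.64 to 11.6, 0.39) stayed within 2-fold. Among WRKY genes, WRKY46 had the largest ratio of the list, with 64.1 FPKM warm, 9.64 after 1 week and 43.8 after 2 weeks (2.07). WRKY70 stood at 235 FPKM warm, 45.1 after 1 week and 110 after 2 weeks (1.27). WRKY38 (1.47 to 6.02 FPKM, 1.51), WRKY33 (24.4 to 65.2, 1.38) and WRKY18 (8.47 to 19.4, 1.1) were also higher, as was NIMIN1, which encodes a partner of NPR1 (8.02 to 21.2 FPKM, 1.3). These regulators had a lower FPKM after 1 week of cold than in the warm. The 2 genes of the list with ratios below 0, DMR6 (221 to 209 FPKM, -0.09) and DLO1 (40.7 to 33.4, -0.28), both encode enzymes that hydroxylate and so inactivate salicylic acid.

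Genes of pathogenesis-related proteins and systemic resistance split. Of 17 genes 6 were higher and 0 lower, with a median of 0.84, and 6 ratios were below 0. PR1, the classic marker of salicylic acid responses, stood at 867 FPKM warm, 3336 after 1 week and 11644 after 2 weeks (1.80). PR2, a glucanase, went the other way within 2-fold, from 3079 to 2001 FPKM (-0.62), and PR5, a thaumatin-like protein, from 7128 to 6916 (-0.04). PR1 therefore passed PR5 as the member with the highest FPKM. ALD1 (0.514 to 3.07 FPKM, 1.42) and FMO1 (4.48 to 12.2, 1.26), which make the systemic signal N-hydroxypipecolic acid, and UGT76B1, which glycosylates it (2.70 to 7.82 FPKM, 1.25), were all higher at low levels. ALD1 was kept only through its value after 2 weeks, and with a filter of at least 5 FPKM 5 of 14 listed genes were higher. PNP-A, a secreted natriuretic-type peptide, went from 27.3 to 117 FPKM (2.06), its warm level being 114. The 17 genes together held 1.60% of the FPKM sum after 1 week and 2.65% after 2 weeks. In SW plants 6 of the 17 were lower and 1 was higher (median -0.72).

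Receptor and secretory genes were shifted less, but in 1 direction. Over all genes 9375 of 18378 ratios were above 0 and 1.92% were higher. All 15 listed immune receptor and kinase genes had ratios above 0 (median 0.49), and 2 were higher, the kinase gene MPK11 (7.78 to 21.4 FPKM, 1.35) and the helper receptor gene ADR1-L1 (19.5 to 48.2, 1.26). SOBIR1, the co-receptor kinase with the highest FPKM within 2-fold, went from 105 to 147 FPKM (0.49). All 14 genes of endoplasmic reticulum chaperones, which fold secreted proteins, had ratios above 0 as well (median 0.50). BIP3 was the 1 gene past the limit (0.966 to 6.81 FPKM, 1.99), and was kept only through its value after 2 weeks. BZIP60, the transcription factor gene of the unfolded protein response, went from 75.2 to 150 FPKM (0.99). In SW plants the medians of both lists were -0.33 and -0.27. Over the scalings tried the IT medians ranged from 0.34 to 0.65 and from 0.35 to 0.70.

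Families chosen after their values were seen are given as a description and add no independent evidence. Over all genes 1.92% were higher and 1.56% lower. Of 51 WRKY genes 9 were higher and 0 lower, with a median of 0.40. The family includes WRKY46, WRKY70, WRKY33, WRKY38 and WRKY18, which are also counted in the salicylic acid list, and WRKY75, counted in the senescence list. Of 70 genes annotated with a TIR domain, the signalling domain of 1 class of immune receptors, 11 were higher and all 70 ratios were above 0 (median 0.47). WRR4, a TIR receptor gene, went from 1.86 to 5.52 FPKM (1.19). Of 44 EF-hand calcium-binding genes 6 were higher and 0 lower, among them TCH3, a calmodulin-like touch gene, at 227 FPKM warm, 54.0 after 1 week and 199 after 2 weeks (1.86). Of 31 cysteine-rich receptor-like kinase genes 4 were higher, with CRK39 at 2.22 and 8.86 FPKM (1.61). Of 21 genes of tau-class glutathione transferases, which detoxify reactive compounds, 4 were higher and 1 was lower in IT, while 11 were lower in SW. The lower gene in IT was GSTU20, which is also counted in the aliphatic glucosinolate list.

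Plant defensins and part of the jasmonate list were higher. Jasmonate is the hormone of wound and necrotroph responses. Of 28 listed genes 5 were higher and 1 was lower (median 0.29), against 1.92% and 1.56% of all genes. PDF1.2a stood at 34.8 FPKM warm, 39.7 after 1 week and 439 after 2 weeks (3.43). PDF1.2c went from 33.8 to 371 FPKM (3.42), PDF1.3 from 5.92 to 71.6 (3.39) and PDF1.2b from 71.8 to 154 (1.09). Since these copies are alike and may share reads, the sum of PDF1.2a, PDF1.2b and PDF1.2c is the firmer value, at 145 and 964 FPKM (ratio 2.72). In SW plants that sum went from 780 to 404 FPKM (-0.95). The other higher gene of the list in IT was LOX4, a lipoxygenase gene (2.46 to 6.30 FPKM, 1.08). The jasmonate synthesis genes AOS (123 to 118 FPKM, -0.06) and LOX2 (569 to 694, 0.29) stayed within 2-fold. So did the repressor genes JAZ1 (0.40) and JAZ9 (0.13). CORI3, a tyrosine aminotransferase-like gene induced by jasmonate, was lower (133 to 65.9 FPKM, -1.01).

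**Figure D2:**
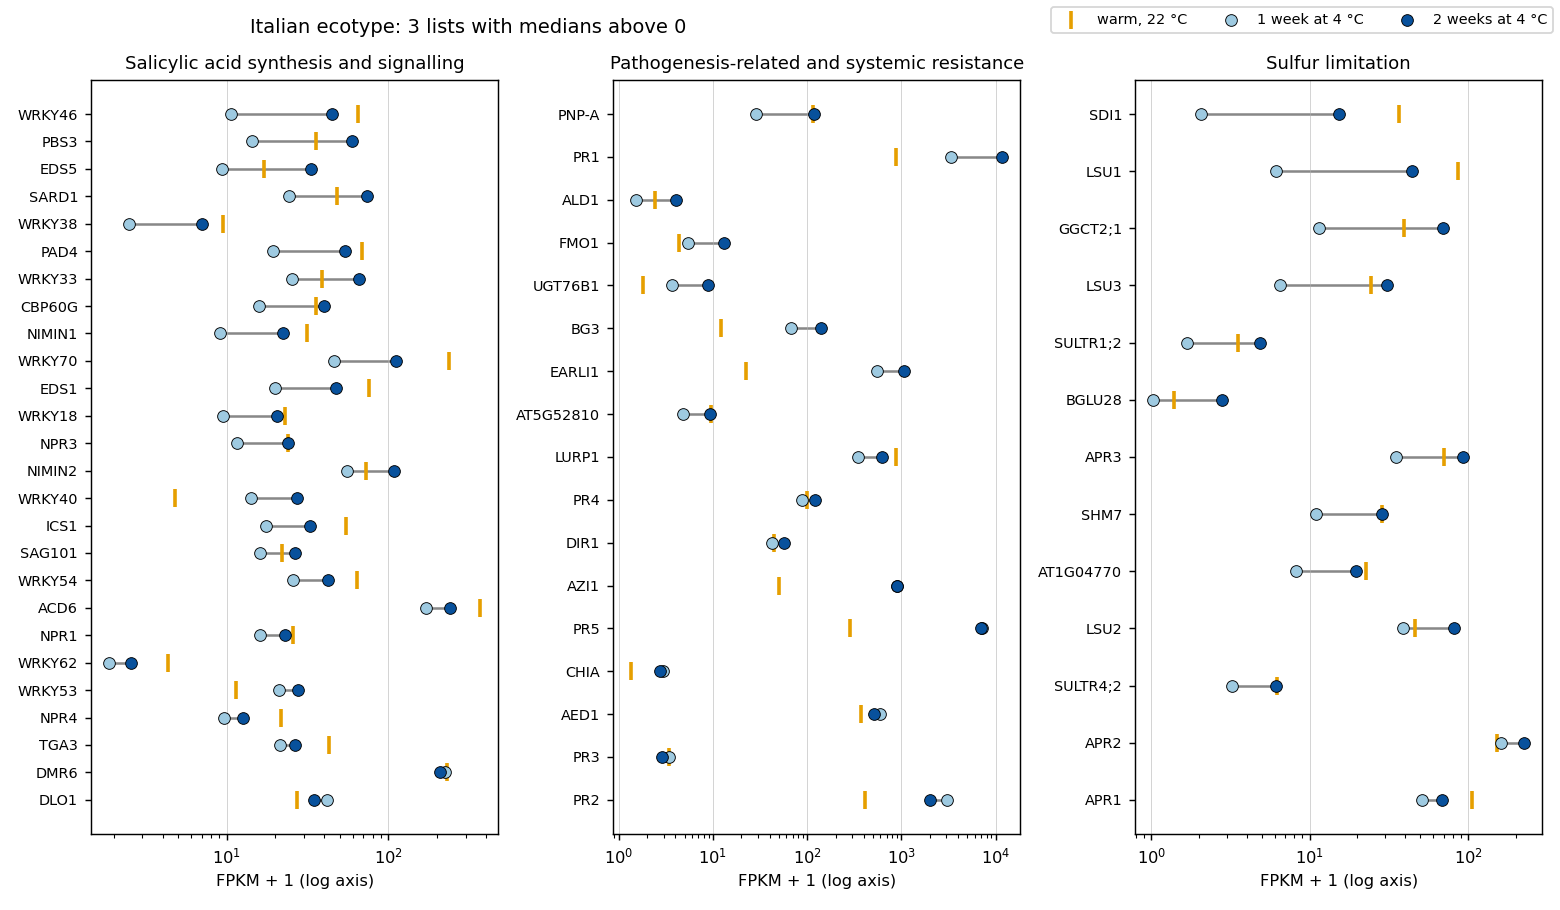
FPKM plus 1 (log axis) of each gene of 3 lists in the Italian ecotype, with orange ticks for warm plants, light circles for 1 week and dark circles for 2 weeks at 4 °C; each mark is 1 combined value of 3 libraries. The dark circle lies to the right of the light one for 24 of 26 salicylic acid genes, 11 of 17 pathogenesis-related genes and all 13 sulfur limitation genes.

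Most sulfur limitation genes were higher. Plants short of sulfur save it by recycling glutathione and by holding back glucosinolate synthesis. Of 14 listed genes 13 had a ratio, 10 of these were higher, 0 were lower and the median was 1.4, the highest of all lists here. Over all genes 1.92% were higher and 1.56% lower. With a filter of at least 5 FPKM 8 of 11 listed genes were higher (median 1.38). SDI1, known as a repressor of aliphatic glucosinolate synthesis, stood at 35.5 FPKM warm, 1.05 after 1 week and 14.3 after 2 weeks (2.90). LSU1, a low-sulfur response gene, stood at 84.6, 5.12 and 43.1 FPKM (2.85). Its relatives LSU3 (5.51 to 29.8 FPKM, 2.24) and LSU2 (37.8 to 80.9, 1.08) were higher too. The levels after 1 week were thus the lowest of the 3 IT conditions for each of these genes.

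Enzymes and transporters of the list did likewise. GGCT2;1, which breaks down glutathione, went from 10.4 to 68.5 FPKM (2.60), and APR3, an enzyme of sulfate reduction, from 34.2 to 91.9 (1.4). The other reductase genes APR1 (50.4 to 67.0 FPKM, 0.40) and APR2 (161 to 224, 0.47) stayed within 2-fold. SULTR1;2, a sulfate uptake transporter, went from 0.681 to 3.85 FPKM (1.53), and SULTR4;2, which releases sulfate from the vacuole, from 2.23 to 5.14 (0.93). SHM7 (9.90 to 27.4 FPKM, 1.38), AT1G04770 (7.14 to 18.6, 1.27) and BGLU28 (0.0320 to 1.80, 1.44) complete the 10. SULTR1;2 and BGLU28 were below 1 FPKM after 1 week and were kept only through their values after 2 weeks. In SW plants 1 of the 13 was higher, LSU1 (1.498 to 6.77 FPKM, 1.64), and the median was -0.02.

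Many aliphatic glucosinolate genes were lower. Of 28 listed genes AOP3 was at 0 throughout, and of the other 27 genes 15 were lower, 0 were higher and 26 ratios were below 0 (median -1.02). Over all genes 1.56% were lower and 9003 of 18378 ratios were below 0. With a filter of at least 5 FPKM 14 of 26 listed genes were lower. In SW plants 8 of the 27 were lower and all 27 ratios were below 0 (median -0.80). The difference between the ecotypes was not tested.

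By step, the regulators MYB28 (84.1 to 44.1 FPKM, -0.92), MYB29 (49.8 to 24.0, -1.02) and MYB76 (4.01 to 0.951, -1.36) all had lower FPKM after 2 weeks. In chain elongation of methionine, the aminotransferase gene BCAT4 went from 417 to 158 FPKM (-1.39), the plastid transporter gene BAT5 from 81.9 to 24.6 (-1.69), the synthase gene MAM1 from 707 to 259 (-1.44), the isomerase genes IPMI1 and IPMI2 from 124 to 44.9 (-1.44) and from 295 to 110 (-1.41), and the dehydrogenase gene IMD1 from 263 to 106 (-1.3). BAT5 had the largest change of the list. In the core pathway, the oxidase gene CYP79F1 went from 273 to 108 FPKM (-1.34), CYP83A1 from 462 to 273 (-0.76) and the sulfotransferase gene SOT17 from 75.4 to 27.4 (-1.43). GSTU20, a glutathione transferase gene co-expressed with this path, was the most abundant member, with 2145 FPKM after 1 week and 740 after 2 weeks (-1.53). Of the later side-chain genes, AOP2 went from 209 to 103 FPKM (-1.01) and FMOGSOX5 from 23.7 to 24.2 (0.03). Except for FMOGSOX5 and GGP1 (267 to 242 FPKM, -0.14), the genes with a ratio ranged from BAT5 at -1.69 to MAM3 at -0.50.

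Related paths did not follow as a block. Of 15 indolic glucosinolate and camalexin genes 1 was higher and 1 lower, with a median of 0.08. The regulator gene MYB51 went from 5.73 to 18.9 FPKM (1.57) and CYP81F4, a late indolic enzyme gene, from 4.17 to 0.416 (-1.87). Among the genes of glucosinolate breakdown, the myrosinase gene TGG2 (512 to 243 FPKM, -1.07) and the specifier gene ESP (1972 to 959, -1.04) were lower, and NSP5, a nitrile specifier gene, was higher (49.5 to 121, 1.27). TGG1, the most abundant member within 2-fold, went from 1416 to 1146 FPKM (-0.31).

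Some nucleolar ribosome assembly genes were lower. Of 24 genes 9 were lower, 0 were higher and 23 ratios were below 0 (median -0.98). Over all genes 1.56% were lower and 9003 of 18378 ratios were below 0. The number lower in the list ranged from 7 to 16 over the scalings tried. All listed genes had FPKM values after 1 week above their warm values. In SW plants 0 of the 24 passed the limit and the median was -0.29, but 23 ratios were below 0 there as well.

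By role, proteins of the box C/D particles that methylate ribosomal RNA were among the most changed. Fibrillarin FIB2, the methylase, stood at 25.6 FPKM warm, 408 after 1 week and 160 after 2 weeks (-1.35), and FIB1 went from 233 to 117 (-0.99). NOP56 went from 298 to 129 FPKM (-1.20), and the NOP56-like genes AT5G27120 and AT3G05060, from 122 to 44.8 (-1.43) and from 140 to 63.2 (-1.13). The pseudouridine synthase gene NAP57 of the other particle class went from 171 to 86.9 FPKM (-0.97), just within 2-fold. Nucleolin NUC1, which organises nucleolar chromatin, was the most abundant, at 508 and 256 FPKM (-0.99). RID2, a methyltransferase gene of rRNA processing, went from 48.6 to 19.2 FPKM (-1.3) and the large subunits of RNA polymerase I, NRPA1 and NRPA2, from 15.6 to 7.47 (-0.97) and from 17.55 to 9.499 (-0.82). REIL1, a cytosolic 60S maturation factor, was the exception at 43.1 and 44.7 FPKM (0.05), while its relative REIL2 went from 56.4 to 33.2 (-0.75).

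Other parts of the translation apparatus had lower values too. Of 294 genes with a ratio whose product is named as a ribosomal protein, cytosolic and organellar ones not separated and the family chosen after its values were seen, 18 were lower, 1 was higher and 271 ratios were below 0 (median -0.52, and from -0.67 to -0.30 over the scalings). The summed FPKM of the family went from 162148 to 124401. In SW the median of the same genes was 0.01. Of 37 snoRNA genes with a ratio, 14 were lower and 2 higher (median -0.71), and AT2G05765 went from 6152 to 1524 FPKM (-2.01). FPKM values of such short RNAs are unsteady: 15 further snoRNA genes were listed at 0 at 1 of the times. RNA chaperones of the cold shock and glycine-rich class had a median of -0.56 in IT and -0.26 in SW. Of their 11 ratios 8 were below 0 in IT and 10 in SW. In IT 1 of 11 was lower, GRP4 (203 to 81.8 FPKM, -1.3). GRP7, the most abundant, went from 3432 to 1907 FPKM (-0.85). AT2G01021, annotated next to ribosomal RNA genes on chromosome 2, went up from 6281 to 21896 FPKM (1.80), from 0.620% to 2.40% of the FPKM sum. What part it has in the other values was not tested.

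**Figure D3:**
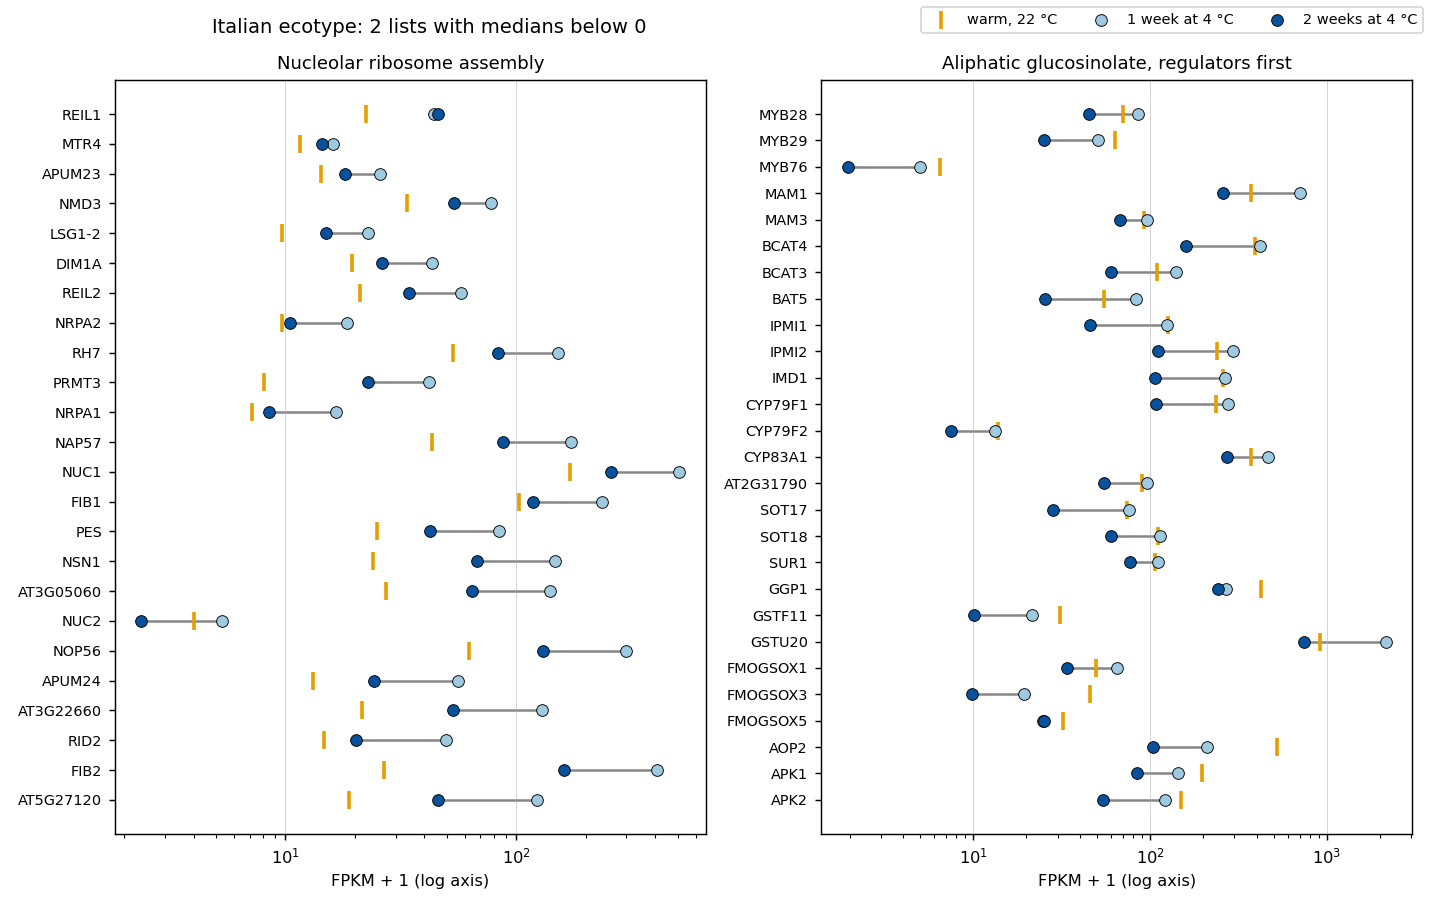
FPKM plus 1 (log axis) of each nucleolar gene (left, by ratio) and each aliphatic glucosinolate gene (right, regulators first) in the Italian ecotype, with orange ticks for warm plants, light circles for 1 week and dark circles for 2 weeks at 4 °C. The dark circle lies left of the light one for 23 of 24 nucleolar and 26 of 27 glucosinolate genes; the warm ticks lie left of the light circles for all nucleolar genes and on either side of them for the glucosinolate genes.

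The CBF regulon as a whole was level. Of 26 CBF and cold-regulated genes 0 were higher and 2 were lower, with a median of -0.08. CBF1 stood at 1.62 and 2.32 FPKM (0.34), CBF2 at 27.3 and 24.1 (-0.18) and CBF3 at 29.1 and 32.8 (0.16), against warm values of 0.123, 0.639 and 3.65 FPKM. RD29A (193 to 185 FPKM, -0.06) and GOLS3, a galactinol synthase gene (19.1 to 22.5, 0.22), also stayed level. KIN1 stood at 4.29 FPKM warm, 2263 after 1 week and 698 after 2 weeks (-1.70), while its neighbour KIN2 stood at 417, 3591 and 3824 FPKM (0.09). The sum of both copies went from 5854 to 4521 FPKM (-0.37), within 2-fold. COR15A, which encodes a chloroplast membrane-protecting protein, went from 5067 to 3062 FPKM (-0.73), and COR15A and COR15B together from 6770 to 4837 (-0.49). RAB18 (AT5G66400), a dehydrin gene of the abscisic acid response, was lower at 13.6 and 5.00495 FPKM (-1.28), and was also lower in SW (-2.59). ZAT10, a zinc finger repressor gene, had the highest ratio of the list (16.4 to 30.5 FPKM, 0.85).

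No clock gene passed the limit: 0 of 25 were higher and 0 lower, with a median of 0.02 and a range of -0.59 to 0.55. CCA1 stood at 161 and 164 FPKM (0.03), GI at 48.6 and 49.1 (0.02) and TOC1 at 55.3 and 54.1 (-0.03). Genes of starch, sugar, raffinose and proline metabolism were level as well, with 0 of 35 past the limit and a median of 0.02. BAM3, the cold-induced starch-degrading amylase gene, was the most abundant at 957 and 657 FPKM (-0.54).

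Floral genes began to appear at low levels. Flowering is driven by FT, the mobile signal, and SOC1, while FLC represses both until prolonged cold silences it through VIN3. Of 15 floral inducer and meristem identity genes with a ratio 4 were higher and 0 lower (median 0.43), against 1.92% of all genes. These 4, FT, AP1, SEP2 and SEP3, were below 1 FPKM after 1 week and were kept only through their values after 2 weeks. Their count is therefore not comparable with the share of all genes. With a filter of at least 5 FPKM 0 of 6 listed genes were higher, and the median was -0.07. FT stood at 0.0531 FPKM warm, 0.609 after 1 week and 2.78 after 2 weeks (1.23, and 2.02 with a pseudocount of 0.1). AP1, which gives floral identity to meristems, went from 0.0457 to 1.48 FPKM (1.24), SEP2 from 0.160 to 1.67 (1.21) and SEP3 from 0.528 to 2.60 (1.23). SOC1 went from 61.4 to 83.2 FPKM (0.43).

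The petal and stamen identity genes AP3 (0.0325 to 1.103 FPKM, 1.027) and PI (0.131 to 1.35, 1.05) moved with them. Both were likewise kept only through their values after 2 weeks. The summed FPKM of the 3 floral organ markers went from 0.388 to 3.14. Their part in the result was not tested. FLC stood at 63.2 FPKM warm, 48.2 after 1 week and 30.03 after 2 weeks (-0.66, within 2-fold), and in SW plants its ratio was -0.75 (176 to 105 FPKM). VIN3 went from 0.423 to 1.15 FPKM (0.59). Of 19 floral repressor and vernalization genes TEM2, a repressor of FT, was the 1 gene past the limit (7.95 to 18.3 FPKM, 1.11). In SW plants AP1 stayed at 0.0083 and 0.0095 FPKM, SEP3 at 0.118 and 0.109, and FT was listed at 0 after 1 week and stood at 0.0149 FPKM after 2 weeks.

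Senescence genes had higher values beside the defence genes. All 15 ratios of senescence and chlorophyll breakdown genes were above 0 and 4 were higher (median 0.54). With reference-gene scaling 12 of the 15 were above 0, and over the scalings tried the median ranged from 0.39 to 0.68. SAG29, a SWEET-type sugar transporter gene, went from 0.898 to 7.42 FPKM (2.15), SAG12, a protease gene of late senescence, from 0.0152 to 1.76 (1.44), SAG21 from 285 to 675 (1.24) and WRKY75 from 7.51 to 17.64 (1.13). SAG29 and SAG12 were below 1 FPKM after 1 week and were kept only through their values after 2 weeks. With a filter of at least 5 FPKM 3 of 13 listed genes were higher. The chlorophyll breakdown genes proper were level, with PAO at 39.8 and 53.0 FPKM (0.40) and NYC1 at 63.3 and 73.5 (0.21). Their part in the defence result was not tested. Of 11 dark and sugar starvation genes 2 were higher, DIN2, a glycosyl hydrolase gene (1.68 to 22.9 FPKM, 3.15), and DIN1 (1.75 to 4.54, 1.01), while DIN6, an asparagine synthetase gene, stood at 3.65 and 5.22 (0.42).

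Photosynthesis genes drifted slightly. Of 26 nuclear photosystem and electron transport genes 0 passed the limit, 24 ratios were below 0 and the median was -0.22. Of 15 light-harvesting genes with a ratio LHCB4.3, an antenna gene of photosystem II, was higher (12.1 to 33.9 FPKM, 1.41) and LHCB2.3 was lower (533 to 264, -1.01), with a median of -0.23. Under quantile normalization both medians turned above 0, to 0.13 and 0.17. In the carbon fixation list RBCS1B (1874 to 723 FPKM, -1.37) and RBCS2B (642 to 293, -1.13), which encode the small subunit of Rubisco, were lower. The summed FPKM of the 4 small subunit genes, with RBCS1A listed at 0 in every column, went from 3234 to 1539 (-1.07). The Rubisco activase gene RCA stayed at 2623 and 2650 FPKM (0.01).

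Pigment, hormone and growth lists gave few genes past the limit. Of 14 anthocyanin genes 1 was lower, LDOX (19.6 to 8.85 FPKM, -1.06), and of 13 phenylpropanoid and flavonol genes 0 passed, with chalcone synthase CHS at 316 and 180 FPKM (-0.81). Of 21 abscisic acid and dehydration genes 1 was lower, the catabolic gene CYP707A3 (2.77 to 0.743 FPKM, -1.11). Of 27 growth, gibberellin and cell wall genes 2 were higher, the expansin gene EXPA8 (2.96 to 9.56 FPKM, 1.42) and the wall-remodelling gene XTH23 (2.304 to 7.002, 1.28). Of 25 cell division genes 0 passed, with a median of 0.33 and of 0.77 in SW. Within that list the mitotic genes NACK1 (4.69 to 7.89 FPKM, 0.64) and AUR2 (5.22 to 8.02, 0.54) and the DNA synthesis genes RNR1 (51.1 to 32.9, -0.62) and TSO2 (53.8 to 39.5, -0.44) lay on opposite sides of 0.

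Nutrient and stress lists other than sulfur also had few genes past the limit. Of 12 iron genes 1 was lower, AT1G47400 (16.1 to 5.72 FPKM, -1.34), and of 13 nitrate and phosphate genes 0 passed (median 0.15). Of 10 low-oxygen genes 1 was higher, the haemoglobin gene HB1 (3.85 to 11.3 FPKM, 1.34). Of these 10 ratios 9 were above 0, and the median was 0.48 (0.36 to 0.60 over the scalings tried). Of 17 photoprotection and antioxidant genes 0 passed (median 0.18), and of 13 membrane lipid genes 0 passed (median -0.15). Of 12 lipid transfer and wax genes AT4G12490 was higher (21.9 to 55.7 FPKM, 1.31) and LTP3, a lipid transfer protein gene, lower (35.5 to 6.58, -2.27). Heat shock genes had 4 of 12 members with a ratio and 0 past the limit. Root and seed markers were all below 1 FPKM, and their summed FPKM stayed at or below 0.831, so that the aerial label was not contradicted. The 6 stomatal markers all had ratios below 0 (median -0.30), and 4 vein and shoot meristem markers had a median of -0.12.

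**Figure D4:**
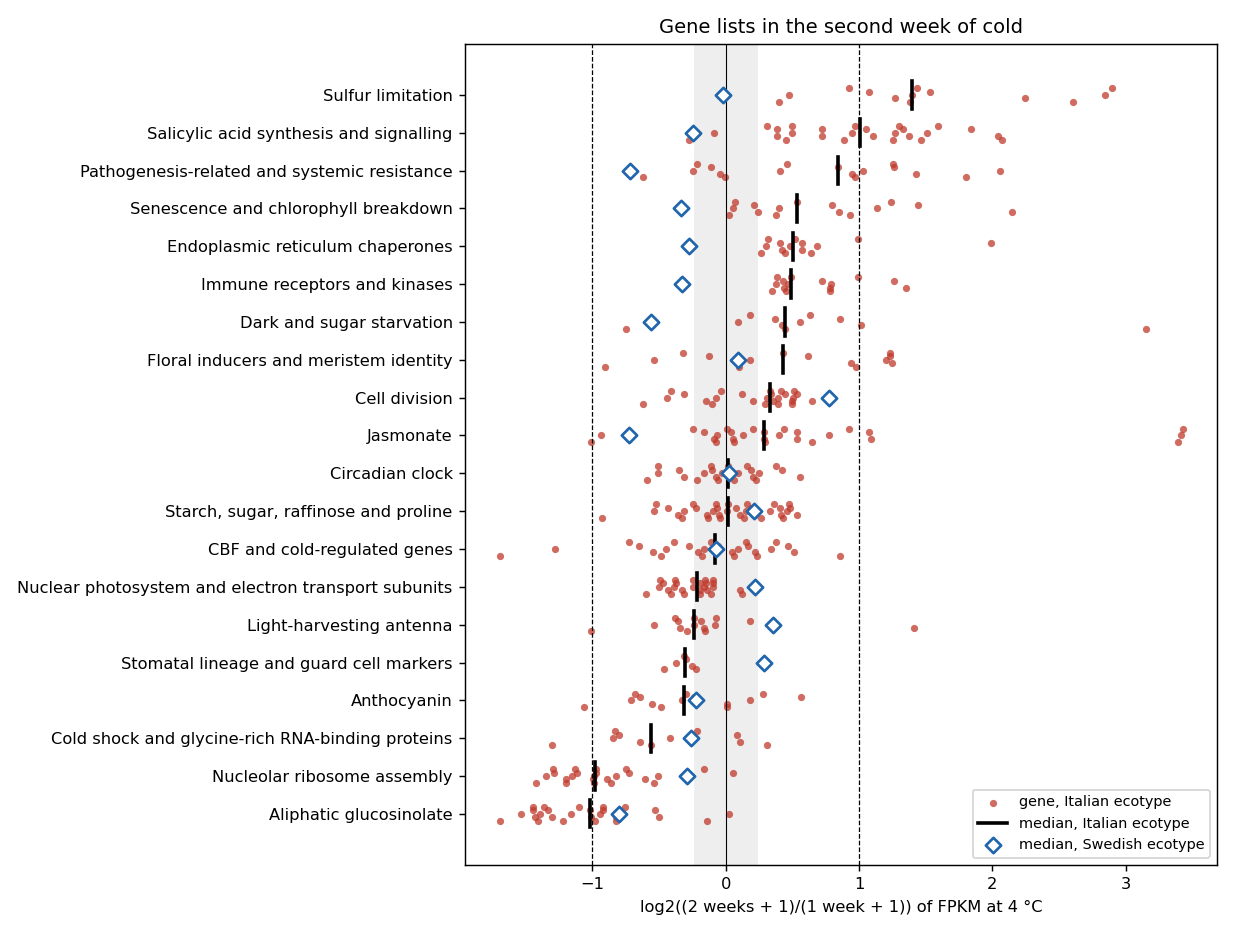
Ratios (log2, 1 FPKM added) of single genes (red points) and medians (black bars) of 20 gene lists in the second week of cold in the Italian ecotype, with the medians of the same genes in the Swedish ecotype as open blue diamonds; the grey band spans the quartiles of all Italian genes (-0.23 to 0.24) and dashed lines mark 2-fold. Sulfur limitation and salicylic acid genes have the highest Italian medians of the 20 (1.4 and 1.01), and aliphatic glucosinolate and nucleolar genes the lowest (-1.02 and -0.98).

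Of genes reaching 5 FPKM, the 15 with the highest and the 15 with the lowest ratios are given next. The higher side held defensin, avirulence-induced and sulfur limitation genes. The highest was AT1G33950, of the AIG1 family named for induction by avirulent bacteria, with 0.0880 FPKM warm, 1.399 after 1 week and 26.1 after 2 weeks (3.50). AIG1 itself stood at 52.1, 15.5 and 176 FPKM (3.42). NUDT6, a nudix hydrolase gene, stood at 106, 14.7 and 121 FPKM (2.96). AT1G33950 was thus close to 0 in warm plants, whereas AIG1 and NUDT6 were lowest after 1 week of cold. PGAZAT, annotated as a polygalacturonase, went from 0.223 to 7.66 FPKM (2.82), the glutaredoxin gene AT2G47880 from 1.06 to 12.7 (2.74), PYD4 from 0.963 to 11.6 (2.68), AT5G46960, of the invertase inhibitor family, from 0.710 to 8.58 (2.49) and MEE3, of the homeodomain-like superfamily, from 0.787 to 8.93 (2.47).

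On the lower side 6 of the 15 were snoRNA genes and 2 were miRNA precursor genes, MIR775 (245 to 57.5 FPKM, -2.07) and MIR860 (56.8 to 14.1, -1.93). The largest was AT1G53543, which is not in the annotation used here, at 35.9 and 2.50 FPKM (-3.40). The snoRNA genes ranged from AT4G02555 (3479 to 490 FPKM, -2.82) to AT2G05765 (-2.01), with AT1G75166, AT1G12015, AT3G24612 and AT3G24614 between. The protein-coding genes were LTP3, 2 further genes of the lipid transfer superfamily, AT2G37870 (5.77 to 0.534 FPKM, -2.14) and AT4G22490 (33.9 to 8.65, -1.86), AT3G24100, a SERF family gene (10.2 to 1.57, -2.12), AT3G48344 (5.56 to 0.618, -2.02) and PYK10, a beta-glucosidase of ER bodies (8.997 to 1.76, -1.86). In SW plants AT3G24100 and PYK10 were lower by similar amounts (-2.3 and -2.13), whereas LTP3 stood at 12.3 and 15.5 FPKM (0.31).

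The same week in SW plants shares no library with the IT comparison, and its counts of higher and lower genes differed. In SW 79 genes (0.435%) were higher and 557 (3.07%) were lower of 18171. Over the 17538 genes with a ratio in both ecotypes the ratios were nearly unrelated, with Pearson's r of 0.02 and Spearman's rho of 0.15, given as a description across genes that share libraries. Among these genes 288 were higher in IT, and 84 of them were lower in SW, which is 29.2% of the IT-higher and 17.0% of the SW-lower genes. A further 15 were higher in both, 5.21% of the IT-higher and 21.1% of the SW-higher genes. Over all 17538 genes, 71 were higher and 495 lower in SW, and over all 18171 SW genes the shares were 0.435% and 3.07%. Of the 270 genes lower in IT, 32 were lower in SW, which is 11.9% of these and 6.46% of the SW-lower genes, and 3 were higher in SW. The same-direction overlaps, 5.21% and 11.9%, and the opposite overlap of 29.2% were above the shares over all SW genes. Those shares cover 18171 genes, and the overlaps the 17538 with both ratios. The opposite overlap of 1.11% rests on 3 genes, too few to read as an excess. The IT-higher genes had a median ratio of -0.51 in SW, and the IT-lower genes of -0.42.

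**Figure D5:**
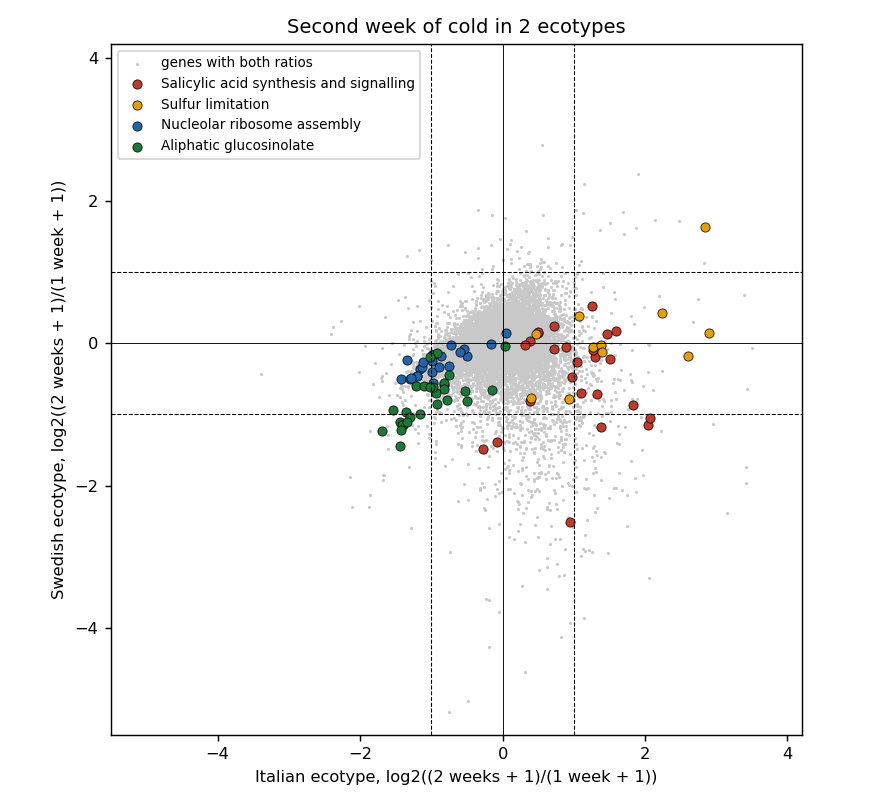
Ratio of 2 weeks to 1 week of cold (log2, 1 FPKM added) in the Italian (x axis) and Swedish (y axis) ecotype, with 1 grey point for each of 17538 genes, 4 gene lists in colour and dashed lines at 2-fold. All aliphatic glucosinolate genes but FMOGSOX5 (0.03 in IT) lie below 0 on both axes (medians -1.02 and -0.80), while 24 of 26 salicylic acid genes lie right of 0 in the Italian ecotype, DMR6 and DLO1 being the others, and 19 of 26 lie below 0 in the Swedish ecotype (medians 1.01 and -0.24).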

How the data were processed

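RNA was sequenced from whole aerial parts, 3 libraries for each of 6 groups of IT and SW plants. Per the submitters' processing notes, TopHat 1.4.1, Cufflinks 2.1.1, Cuffdiff and the build TAIR10 were used; settings and strand handling: not given in the sources used here. FPKM are the deposited values, 1 combined value per gene and group made by the authors, per the file headers. The planned fit over libraries could therefore not be made, and ratios stand without test, as the design provided.

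FPKM was used as deposited, with a pseudocount of 1 and a minimum of 1 FPKM in either column. The FPKM sums were 1013445 after 1 week and 910807 after 2 weeks in IT. Loci were matched to RefSeq's TAIR10.1 annotation (32813 matched, 744 not). The 39 lists (654 loci) and the members were chosen with earlier results of these data known. The text names 14 fixed genes, the 15 highest and 15 lowest ratios among genes reaching 5 FPKM, and in each list up to 5 genes past 2-fold and the most abundant within it; pathway lists are given by step. Families and the GCC box were chosen after values were seen. The arithmetic of ratios and counts was checked on a copy of the 1 week values with planted folds and no noise. That check says nothing on how reliable the values are. Alternatives were pseudocounts of 0.1 and 0.25, filters of 0 and 5 FPKM, 4 scalings, exact 0 used as a value, protein-coding genes alone and fold limits of 1.5 and 4. Python 3.11.15, pandas 2.3.3, NumPy 2.4.6 and Matplotlib 3.10.9 were used.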

Additional observations from a re-analysis of the deposited data

Results flagged for a closer look

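The genes below went in opposite directions in the second week of cold in the 2 ecotypes, which is why they are listed. Each value is the IT log2 ratio minus the SW log2 ratio. With 1 combined value for each group the difference was not tested, and no spread between libraries is known. For the defence genes the difference was 5.38 for AIG1, 4.09 for NUDT6, 5.16 for PDF1.2c and 2.12 for PDF1.2b. The salicylic acid and systemic resistance genes gave 3.13 for WRKY46, 3.20 for PBS3, 2.74 for FMO1 and 4.19 for UGT76B1. For WRKY75, a regulator in senescence and defence, it was 4.03. The dark and sugar starvation genes gave 5.55 for DIN2 and 2.34 for DIN1. NSP5, a nitrile specifier gene, gave 3.09, and XTH23, a cell wall gene, 2.57. AT1G47400, of the iron list, was the 1 gene with a negative difference among these named genes, at -2.57.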

How the results depend on the processing

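With a pseudocount of 0.1 in place of 1, the IT counts were 608 higher and 463 lower and the SW count 205 higher. With 0.25 these were 548 higher in IT and 168 higher in SW. Scaling to the reference genes gave 518 lower genes in IT, and scaling to the same FPKM sum gave 169. At a fold limit of 1.5 the counts were 1216 higher and 1349 lower in IT and 476 and 1239 in SW; at 4 they were 32 and 12 in IT and 3 and 118 in SW. The median of the floral inducers went from 0.43 to -0.0715 with a filter of 5 FPKM, under which fewer genes are tested. Under the alternatives run, no list median of at least 0.5 in size and no named ratio past 2-fold changed sign. Counts have no sign, but the balance of higher and lower genes in IT did turn. The share of higher genes was 55.1%, and it was 33.2% with reference-gene scaling and 47.4% at a fold limit of 1.5. For the 130 named genes, 43 values moved by more than 0.5 on the log2 scale and 1237 did not. No paired analysis was possible because the table holds 1 combined value for each group, so neither a replicate block nor leaving out a library could be run. The depth behind each FPKM is unknown, and low or short genes are the least certain.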

Other observations

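Of 56 miRNA precursor genes with a ratio, 4 were higher and 5 lower in the second week in IT (median -0.13). Of 66 chloroplast-encoded genes 2 were higher and 2 lower (median 0.27). Of 10 mitochondrion-encoded genes 2 were higher, and all 10 ratios were above 0 (median 0.57). Of 43 UDP-glycosyltransferase genes 2 were higher and 0 lower in IT, while 12 were lower in SW. These families were chosen after their values were seen. Over all IT genes 1.92% were higher and 1.56% lower, and counts of 2 genes are too small to read as an excess.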
